A study of Mus musculus with 35 samples.

Results

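The comparison covers 10 of the 34 mouse brain libraries with values in the deposited table: 5 mice that received mesenchymal stromal cells engineered to make interleukin-4 (IL-4 MSCs) and 5 that received the same cells without it (MSCs), all sampled 3 weeks after injury. The 10 are the libraries whose labels give either treatment at this time. The mice were male C57BL/6NCrl animals aged 8 to 9 weeks at the start, all had a closed head injury, and all received cells in the left hippocampus on day 5, so the tissue was taken 16 days after treatment. The MSCs were primary cells that a vendor harvested from the same strain, and the IL-4 MSCs were those cells transfected with a synthetic IL-4 mRNA for transient expression. Mice are numbered 1 to 5 within each group. Injured mice given saline (PBS, 4 libraries at 3 weeks) and uninjured Sham mice gave the range of each gene without cells. The Sham mice had 3 libraries at 3 weeks and 2 at 1 week. Another 5 IL-4 MSC and 5 MSC mice, sampled at 1 week, 2 days after treatment, gave the early difference. No sequenced group received MSCs transfected with another mRNA, so an effect of IL-4 and one of the transfection cannot be told apart in these libraries. The paper's flow cytometry at 1 week did include MSCs given luciferase mRNA. It reported a lower share of M2-like macrophages with those cells than with IL-4 MSCs.

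IL-4 is the cytokine that turns macrophages and microglia towards the alternatively activated, M2-like state. It binds a receptor built on Il4ra, the receptor activates the transcription factor STAT6, and STAT6 targets such as Arg1 (arginase 1), Chil3 and Retnla (secreted proteins of alternatively activated macrophages) and Mrc1 (the mannose receptor) follow. The striatum, which lies under the cortex and beside the hippocampus and thalamus, consists mainly of inhibitory projection neurons that respond to dopamine. Neurons of its direct pathway carry the dopamine receptor Drd1 with the peptides Tac1 and Pdyn, and neurons of its indirect pathway carry Drd2, the adenosine receptor Adora2a and the peptide Penk. The comparison asked which genes still separated IL-4 MSC from MSC brains 2 weeks after the early response, and whether any of that response was left.

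The 10 libraries held 30591018 to 38183911 estimated counts each, and 3 counts corresponded to 0.0786 to 0.0981 CPM, the usual unit of counts scaled to library size. Levels below are CPM after TMM scaling, a correction for differences in library composition. The tissue was labelled left cortex, but it was cut as a block around an injection that reached the hippocampus. Markers of cortical layers such as Cux2 (92.2 to 130.1 CPM over the 10 mice) were present in every library, and so were markers of the dentate gyrus (Prox1), the thalamus (Tcf7l2), the choroid plexus (Enpp2) and the striatum (Ppp1r1b). Genes listed as markers of other regions were thus detected in tissue labelled cortex. Their presence alone does not show which regions a block held. A pair of libraries stood apart from their groups. IL-4 MSC mouse 2 lacked the striatal pattern of the other 4 IL-4 MSC mice, and MSC mouse 5 had high levels of inflammatory genes, with the acute-phase protein Lcn2 at 104 CPM against 0.265 to 0.974 CPM in the other MSC mice. The log2 fold change of Lcn2 was -3.63 with that mouse and 1.79 without it (adjusted p = 0.0861 and 0.535). For the main genes and lists that rest on either mouse, values without it follow. Both mice were set apart by values of these same genes. Leaving 1 of them out therefore moves the values in a direction known beforehand. The values without it are descriptions and not support for a difference.

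At 3 weeks, 594 of 17131 genes differed between IL-4 MSC and MSC mice (adjusted p under 0.05, 3.47% of genes tested). Of these, 392 were higher in IL-4 MSC mice (2.29%) and 202 were lower (1.18%). Most differences were small. The median log2 fold change was 0.36 for the higher genes and -0.32 for the lower genes, and only 52 higher and 17 lower genes changed by at least 1 on the log2 scale. The calls came from edgeR's quasi-likelihood test in a joint fit of all 34 libraries, in which the 7 groups share 1 estimate of the spread per gene. Fitted on the 10 libraries alone, edgeR called 0 genes, with 2272 of 16420 genes (13.8%) at an unadjusted p under 0.05, a smallest adjusted p of 0.205, and 585 of the 594 genes among those 2272. On the same 10 libraries limma voom with sample quality weights called 0 genes and DESeq2 called 191 higher and 131 lower.

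The called genes followed single mice. IL-4 MSC mouse 2 had the lowest level among IL-4 MSC mice in 364 of the 392 higher genes (92.9%, against 26.9% of all genes tested) and the highest level in 138 of the 202 lower genes. IL-4 MSC mouse 4 had the highest level in 324 of the 392 higher genes. Without mouse 2 the joint fit called 858 genes higher and 858 lower, which included 389 of the 392 and all of the 202, and the fit on the remaining 9 libraries called 554 higher (3.34%) and 488 lower (2.94%). Without mouse 4 the joint fit called 60 higher and 27 lower, and without MSC mouse 5 it called 182 higher (1.06%) and 84 lower (0.491%). The levels of 142 genes (0.829% of those tested) lay higher in every IL-4 MSC mouse than in every MSC mouse, and those of 131 genes (0.765%) lay lower. Among the called genes 54 and 61 were separated in this way.

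Genes of striatal projection neurons were the group that rose together. Of 46 genes on lists for projection neurons of both pathways, the direct pathway and the indirect pathway, 37 were higher in IL-4 MSC mice and 0 were lower. Over all genes tested 2.29% were higher and 1.18% lower. The 46 genes had a median log2 fold change of 0.97, against 0.00 over all genes tested. The summed level of the 46 genes was 6735, 3554, 6889.6, 9843 and 7834 CPM in IL-4 MSC mice 1 to 5 and 3877, 3445, 3735, 4468 and 3070.2 CPM in MSC mice 1 to 5. Mice 1, 3, 4 and 5 of the IL-4 MSC group lay above all 5 MSC mice, and mouse 2 lay within the MSC range. The 4 PBS mice ranged from 3203 to 3827 CPM. The 3 Sham mice of week 3 had 4573, 4619 and 4970.4 CPM and the 2 of week 1 had 3292 and 3134 CPM, so the same 4 IL-4 MSC mice lay above every PBS and Sham mouse too. In the fit on the 10 libraries alone 0 of the 46 genes passed and 40 stood at an unadjusted p under 0.05, and DESeq2 on the same libraries called 32 higher. Without IL-4 MSC mouse 4 the joint fit called 13 of the 46, and without mouse 2 it called 39, with a median log2 fold change of 1.18. In bulk tissue, a different number of cells of a type and a different amount of RNA per cell cannot be told apart.

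Among the genes that both pathways share, 29 of 30 were higher, against 2.29% of all genes tested. Ppp1r1b (ENSMUSG00000061718, chr11:98348404-98357796 in GRCm38, as are all positions of genes here), which encodes DARPP-32, the phosphatase inhibitor that relays dopamine signals, had 335, 81.6, 342, 528 and 413 CPM in IL-4 MSC mice and 95.3, 73.9, 103, 151 and 68.9 CPM in MSC mice. Only mouse 2 of the IL-4 MSC group overlapped the MSC mice (log2 fold change 1.79 ± 0.41 (SE), adjusted p = 0.0123). Rgs9 (chr11:109225355-109298129), a brake on dopamine and opioid receptor signalling, had 124, 24.8, 117, 223 and 156 CPM against 31.6, 20.9, 37.0, 58.3 and 15.5 CPM, with the same mouse inside the MSC range (log2 fold change 1.99 ± 0.48 (SE), adjusted p = 0.0188). Pde10a (chr17:8525372-8986648), the phosphodiesterase that breaks down cyclic nucleotides in these neurons, had 438, 117, 407, 684 and 532 CPM against 138, 99.7, 132, 201 and 90.0 CPM. Its log2 fold change was 1.72 ± 0.34, adjusted p = 0.00585, and mouse 2 again lay inside the MSC range. Without mouse 2 the log2 fold changes of Ppp1r1b, Rgs9 and Pde10a were 2.03, 2.25 and 1.96 (adjusted p = 0.000449, 0.00111 and 6.22e-05). Mouse 2 was the lowest IL-4 MSC mouse in 42 of the 46 striatal genes, so larger values without it were fixed in advance. Smaller differences were found for Foxp1 (0.58) and Kcnab1 (0.58), which cortical neurons express as well. Hpca, a calcium sensor that is abundant in the hippocampus, was the 1 gene of the 30 that did not pass the test, and is named for that reason after its value was seen (0.19 ± 0.10, adjusted p = 0.298).

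**Figure D1:**
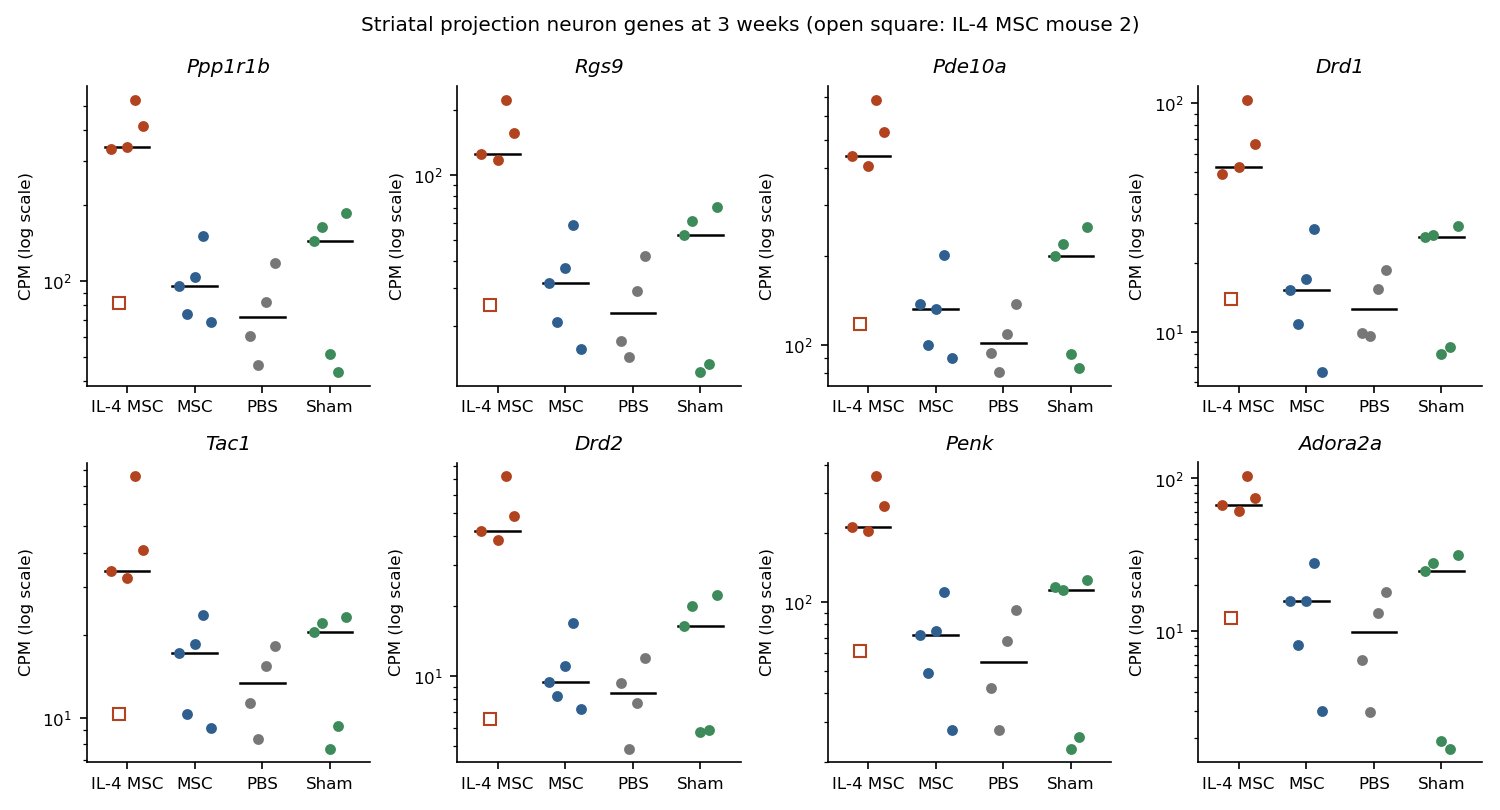
Levels of 8 striatal projection neuron genes in single mice (CPM, log axis) in the IL-4 MSC, MSC, PBS and Sham groups, with a bar at the group median and IL-4 MSC mouse 2 drawn as an open square. In every panel 4 IL-4 MSC mice lie above all MSC mice, and mouse 2 lies inside the MSC range in 7 panels and below it for Drd2, for example Ppp1r1b at 81.6 CPM against 335 to 528 CPM in the others.

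Genes of both output pathways were among those called. In the direct pathway 3 of 8 genes were higher, against 2.29% of all genes tested. Drd1 (ENSMUSG00000021478, chr13:54051183-54055705) had 49.3, 13.9, 52.4, 104 and 66.0 CPM in IL-4 MSC mice and 15.3, 10.8, 17.0, 28.3 and 6.65 CPM in MSC mice, with IL-4 MSC mouse 2 below 3 of the MSC mice (log2 fold change 1.88 ± 0.42 (SE), adjusted p = 0.0106). Tac1, the precursor of substance P, and Chrm4, the muscarinic receptor of direct pathway neurons, had log2 fold changes of 1.30 ± 0.37, adjusted p = 0.0422, and 0.75 ± 0.16, adjusted p = 0.00901. Pdyn, the dynorphin precursor, had a log2 fold change of 0.87 ± 0.30, adjusted p = 0.102, and did not pass. In the indirect pathway 5 of 8 genes were higher, against the same 2.29%. Drd2 (ENSMUSG00000032259, chr9:49340627-49408177) had 41.9, 6.54, 38.4, 72.2 and 48.9 CPM against 9.45, 8.25, 11.1, 17.0 and 7.22 CPM (log2 fold change 1.98 ± 0.43 (SE), adjusted p = 0.00901). Its value in IL-4 MSC mouse 2 was below every MSC mouse. Penk, the enkephalin precursor, had 214, 61.3, 205, 356 and 264 CPM against 71.9, 48.9, 74.7, 111 and 27.5 CPM, and again only mouse 2 overlapped (log2 fold change 1.73 ± 0.47 (SE), adjusted p = 0.0334). The orphan receptors Gpr6 and Gpr52 and the transcription factor Sp9 rose by 2.13, 1.28 and 0.94 on the log2 scale. Adora2a had 66.9, 12.2, 61.2, 104 and 74.8 CPM against 15.8, 8.08, 15.7, 28.0 and 3.01 CPM, and its log2 fold change of 2.19 ± 0.64, adjusted p = 0.051, narrowly missed the threshold. Without IL-4 MSC mouse 2 its log2 fold change was 2.44 with an adjusted p of 0.00971, and those of Drd1, Drd2 and Penk were 2.12, 2.25 and 1.96 (adjusted p = 0.000383, 0.000103 and 0.00402).

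The sequence at the start of these genes was searched for common promoter motifs. The RefSeq table (GRCm38.p6) held windows of 300 bases, from 250 before to 50 after a transcript start, for 37 of the 46 genes (62 windows, since a gene can have several listed starts). The GC box hexamer GGGCGG was found on either strand in 48.4% of the 62 windows and in 35.7% of all 32851 windows of this length. The core TATAAA was found in 12.9% and 13.6%, the CCAAT box in 40.3% and 37.4%, and the cyclic AMP response half-site TGACG in 19.4% and 20.8%, and none of the 4 was in most windows of the list. Windows are shown for Drd1 (the upstream of its 2 listed starts), Drd2 and Rgs9, as examples of a direct pathway, an indirect pathway and a shared gene, 5′ to 3′ along the gene with GGGCGG or its reverse complement in capitals.
Drd1, chr13:54055609-54055908, minus strand: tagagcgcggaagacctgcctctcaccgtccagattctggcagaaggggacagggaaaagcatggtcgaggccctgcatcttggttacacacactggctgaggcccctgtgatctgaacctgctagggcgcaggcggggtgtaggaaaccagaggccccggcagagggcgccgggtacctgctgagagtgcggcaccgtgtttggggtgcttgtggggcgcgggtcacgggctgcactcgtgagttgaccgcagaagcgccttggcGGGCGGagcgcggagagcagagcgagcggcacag
Drd2, chr9:49340153-49340452, plus strand: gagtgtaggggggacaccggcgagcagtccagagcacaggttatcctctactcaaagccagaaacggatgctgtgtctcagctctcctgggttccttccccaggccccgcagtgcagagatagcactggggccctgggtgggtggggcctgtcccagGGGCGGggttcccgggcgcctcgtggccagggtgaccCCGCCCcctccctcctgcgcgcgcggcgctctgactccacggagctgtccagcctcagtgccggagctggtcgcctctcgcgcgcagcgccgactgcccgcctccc
Rgs9, chr11:109298132-109298431, minus strand: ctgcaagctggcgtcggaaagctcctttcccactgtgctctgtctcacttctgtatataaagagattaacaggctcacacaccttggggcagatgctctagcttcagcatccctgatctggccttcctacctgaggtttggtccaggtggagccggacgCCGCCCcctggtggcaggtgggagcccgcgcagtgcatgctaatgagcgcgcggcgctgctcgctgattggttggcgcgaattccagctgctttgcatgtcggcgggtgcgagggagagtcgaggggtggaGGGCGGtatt
The Drd1 window held 1 match and the Drd2 and Rgs9 windows 2 each. These matches describe the letters in these windows and say nothing of which factors bind there.

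Other striatal classes had fewer calls, beside the 2.29% of all genes tested that were higher. Of 9 developmental transcription factors of the striatum, 2 were higher (Dlx6, 0.98 ± 0.25, adjusted p = 0.0236, and Zfp503, 0.51 ± 0.14, adjusted p = 0.0428). Of 8 genes of cholinergic interneurons, 0 passed, with log2 fold changes from -0.34 to 2.90 and a median of 1.53. Without mouse 2, 3 of the 8 were higher, against 5.01% of all genes tested. Lhx8, a transcription factor of these neurons, had 4.66, 0.443, 3.68, 8.13 and 5.41 CPM in IL-4 MSC mice and 0.647, 0.172, 0.534, 1.62 and 0.0860 CPM in MSC mice (adjusted p = 0.0589). Chat, which makes acetylcholine, had 6.55, 1.99, 7.74, 9.04 and 7.88 CPM against 2.30, 1.03, 2.04, 3.94 and 0.659 CPM (adjusted p = 0.113). For both genes mouse 2 lay inside the MSC range, and the other 4 IL-4 MSC mice lay above it.

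Genes of dopamine, cyclic AMP and opioid signalling, a list that shares members with the striatal lists, counted 22 of 35 higher and 0 lower, against 2.29% and 1.18% of all genes tested. Adcy5, the adenylyl cyclase of striatal neurons, Gng7, its G protein partner, and Pde1b, a calcium-dependent phosphodiesterase, rose by 1.05, 1.19 and 1.07 on the log2 scale. Of 28 potassium channel genes 9 were higher and 2 were lower, against the same 2.29% and 1.18%. Kcnk2, a leak channel, had a log2 fold change of 0.61 ± 0.11, adjusted p = 0.00309, and Kcnd3, an A-type channel, one of -0.35 ± 0.08, adjusted p = 0.0106. Of 15 interneuron genes 4 were higher and 0 lower (2.29% and 1.18% of all genes), among them the GABA synthesis enzymes Gad1 (0.44) and Gad2 (0.51) and the vesicular GABA transporter Slc32a1 (0.64), which striatal projection neurons also express.

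The 10 higher genes with the largest fold changes at a mean of at least 1 CPM were Olfr1393, Serpina9, Cd4, Ankk1, Prdm12, Gpr6, Ido1, Eomes, Clspn and Rgs9, with log2 fold changes from 1.99 to 2.69. Serpina9, a serine protease inhibitor, had 7.42, 1.07, 6.60, 14.8 and 9.90 CPM against 1.68, 1.00, 1.48, 2.55 and 0.573 CPM (log2 fold change 2.46 ± 0.51 (SE), adjusted p = 0.00743). Cd4, best known as the coreceptor of helper T cells, had 11.4, 1.74, 12.4, 19.4 and 15.4 CPM against 2.01, 1.63, 2.74, 4.34 and 1.26 CPM (log2 fold change 2.34 ± 0.58 (SE), adjusted p = 0.0203). Ido1, which degrades tryptophan, had 3.61, 0.443, 2.89, 4.83 and 4.17 CPM against 0.679, 0.688, 0.849, 0.960 and 0.487 CPM (log2 fold change 2.13 ± 0.46 (SE), adjusted p = 0.00901). The other 4 IL-4 MSC mice lay above the MSC range in all 3 genes, and mouse 2 lay inside it for Serpina9 and Cd4 and below it for Ido1. Without mouse 2 the log2 fold changes of Serpina9, Cd4 and Ido1 were 2.74, 2.61 and 2.399 (adjusted p = 0.00014, 0.00148 and 0.000124). The T cell receptor chain gene Cd3e, which T cells carry beside Cd4, was at 0.449 ± 0.110 CPM in IL-4 MSC mice and 0.601 ± 0.276 CPM in MSC mice (SD, n = 5 each, adjusted p = 0.52).

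The 24 libraries outside the comparison showed whether the called genes move with striatal genes elsewhere. Within the 5 other groups, the level of each gene was correlated with the mean log2 level of the 46 striatal genes, after the group means were removed. The median r was 0.47 over the 355 higher genes outside the lists, -0.36 over the 202 lower genes and 0.01 over 17085 genes in all. An r above 0.5 was found for 163 of the 355 higher genes (45.9%) and for 11.1% of all genes, and an r below -0.5 for 70 of the 202 lower genes (34.7%) and for 10.5% of all genes. Cd4 (0.97), Serpina9 (0.98) and Ido1 (0.96) had r values near 1, and Eomes (0.38) and Clspn (0.57) had lower ones. The Sham group in these correlations joins mice of 2 weeks. With the Sham mice centred within each week, a choice made after seeing the data, the medians were 0.36, -0.29 and 0.01, and the shares past 0.5 or -0.5 were 36.6% of the higher genes and 29.7% of the lower genes against 8.22% and 8.26% of all genes. The labels give the same dissection and RNA protocol for all libraries, so the correlations are descriptions over samples that share it.

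**Figure D2:**
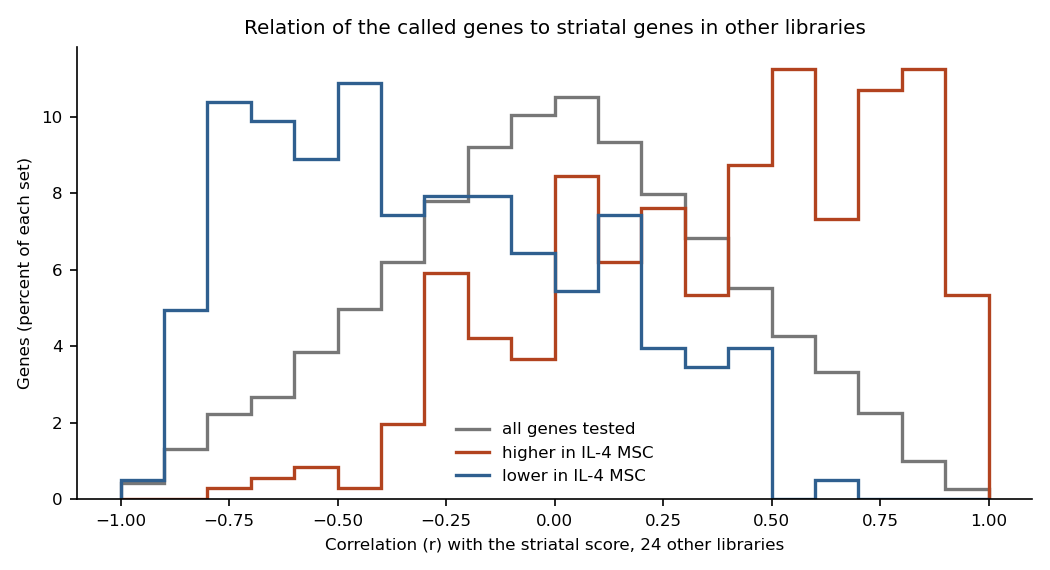
Share of genes (percent, vertical axis) by the correlation of their level with the striatal projection neuron score in the 24 libraries outside the comparison (horizontal axis, bins of 0.1, group means removed), for the 355 higher genes outside the lists, the 202 lower genes and all 17085 genes. The higher genes are shifted to the right, with a median r of 0.47, and the lower genes to the left, with a median of -0.36, around a median of 0.01 for all genes.

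When the striatal score of each library was added to the fit as a covariate, edgeR called 0 genes, and 1444 genes stood at an unadjusted p under 0.05, 262 of the 594 among them. The median log2 fold change of the 46 striatal genes, from which the score was built, was then 0.10. No other tool was run with the covariate. The labels do not record how much striatum each block held, so a difference in the block and a difference in the striatal cells cannot be told apart. The sample titles also carry a number that is the same within each group and week and differs between them, and whatever it stands for cannot be told apart from the treatment.

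Hippocampal lists held 1 of the 594 called genes. Of 392 higher genes 39 were on 1 of the 5 striatal lists (9.95%) and 326 were on none of the 34 lists. On a hippocampal list was 1 higher gene (Tyro3, a receptor kinase enriched in CA1). These lists held 42 of the 17131 genes tested, so 1 higher call is near the 2.29% of all genes called higher. In the 24 other libraries the r of Tyro3 was -0.46 with the hippocampal lists, of which it is a member, and 0.63 with the cortical list. Of 202 lower genes 0 were on a striatal or hippocampal list and 196 were on no list. Over 42 hippocampal genes tested the median log2 fold change was -0.27. The summed level was 1700.4, 2151, 1823, 1861 and 1841 CPM in IL-4 MSC mice and 1998, 2178, 1915, 1921 and 2109 CPM in MSC mice, so the ranges overlapped and mouse 2 was the highest of the IL-4 MSC mice. Without mouse 2, 22 of the 42 genes were lower and 2 higher, against 5.01% of genes tested in each direction.

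Fibcd1, a marker of CA1 pyramidal cells, had 11.2, 40.6, 18.7, 11.7 and 15.4 CPM in IL-4 MSC mice and 27.9, 50.9, 21.1, 26.1 and 64.4 CPM in MSC mice (log2 fold change -0.98 ± 0.42 (SE), adjusted p = 0.196). C1ql2, a synaptic organiser of dentate granule cells, had a log2 fold change of -0.92 ± 0.40, adjusted p = 0.202. Without mouse 2 the log2 fold changes of Fibcd1 and C1ql2 were -1.43 and -1.40 (adjusted p = 0.0268 and 0.0223). Prox1 (chr1:190118035-190170714), a transcription factor of dentate granule cells that thalamic neurons express as well, had 39.5, 78.9, 46.9, 19.8 and 41.5 CPM against 63.1, 69.5, 71.8, 67.3 and 67.7 CPM (log2 fold change -0.59 ± 0.18 (SE), adjusted p = 0.0624). Mouse 2 lay above all 5 MSC mice and the other 4 IL-4 MSC mice lay below all of them. Without mouse 2 the log2 fold change of Prox1 was -0.89 (adjusted p = 0.000133). Bok, listed as a marker of CA3, had a log2 fold change of -0.17 ± 0.14, adjusted p = 0.55. In the 24 other libraries the r of Prox1 was -0.01 with the hippocampal lists and 0.74 with the thalamic list, and that of Bok -0.30 and 0.77. Fibcd1 and C1ql2 had an r of 0.90 and 0.91 with the hippocampal lists, of which all 4 genes are members, and of -0.78 and -0.79 with the thalamic list.

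The summed thalamic genes ordered the 5 IL-4 MSC mice in reverse of the striatal genes. Of 17 thalamic genes 0 passed, against 2.29% of all genes tested higher and 1.18% lower, and their median log2 fold change was -0.62. Their summed level was 764, 1612, 747, 454 and 599 CPM in IL-4 MSC mice and 1394, 1085, 1571, 1428 and 774 CPM in MSC mice. Mouse 2 had the highest value of all 10 and mouse 4 the lowest. Without mouse 2, 11 of the 17 genes were lower, against 5.01% of all genes tested, and the median was -1.11. Tcf7l2, a transcription factor of thalamic neurons, had 41.2, 109.6, 35.5, 10.3 and 30.4 CPM against 70.9, 81.1, 102, 74.9 and 53.6 CPM (log2 fold change -0.76 ± 0.31 (SE), adjusted p = 0.174). In the 24 other libraries the r with the thalamic list was 0.62 for Ppp1r1b, 0.74 for Penk, 0.76 for Adora2a and 0.76 for Pdyn.

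Cortical genes were called in both directions. Of 29 cortical layer genes 2 were higher and 1 was lower, against 2.29% and 1.18% of all genes tested. The higher genes were Tle4 (0.37 ± 0.07, adjusted p = 0.0039) and Cplx3 (0.45 ± 0.13, adjusted p = 0.0499), of the deepest layers. The lower gene was Otof (-0.42 ± 0.11, adjusted p = 0.0334). The median log2 fold change of the 29 genes was 0.00. The upper layer gene Cux2 had a log2 fold change of 0.10 ± 0.08, the layer 4 gene Rorb one of -0.00 ± 0.14, the deep layer gene Fezf2 one of -0.33 ± 0.19 and the deep layer gene Tbr1 one of 0.21 ± 0.09 (SE), and none of the 4 passed. Lists for the choroid plexus (12 genes), ependyma (7), hypothalamus (14), myelin (16), endothelium (14), blood (5), mitochondrially encoded transcripts (13) and posterior Hox genes (10) had 0 calls in either direction. Of 15 genes of fibroblasts and meninges 1 was higher (Postn) and 1 was lower (Aldh1a2), but only 1 had a positive log2 fold change and the median was -0.34. Their summed level was 319.8, 318, 302, 306 and 322 CPM in IL-4 MSC mice and 362, 342, 361, 333 and 436 CPM in MSC mice, so the groups did not overlap. PBS mice had 305 to 428 CPM, a range that reached into both groups, and without MSC mouse 5, the highest of the 10, the median was -0.18.

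**Figure D3:**
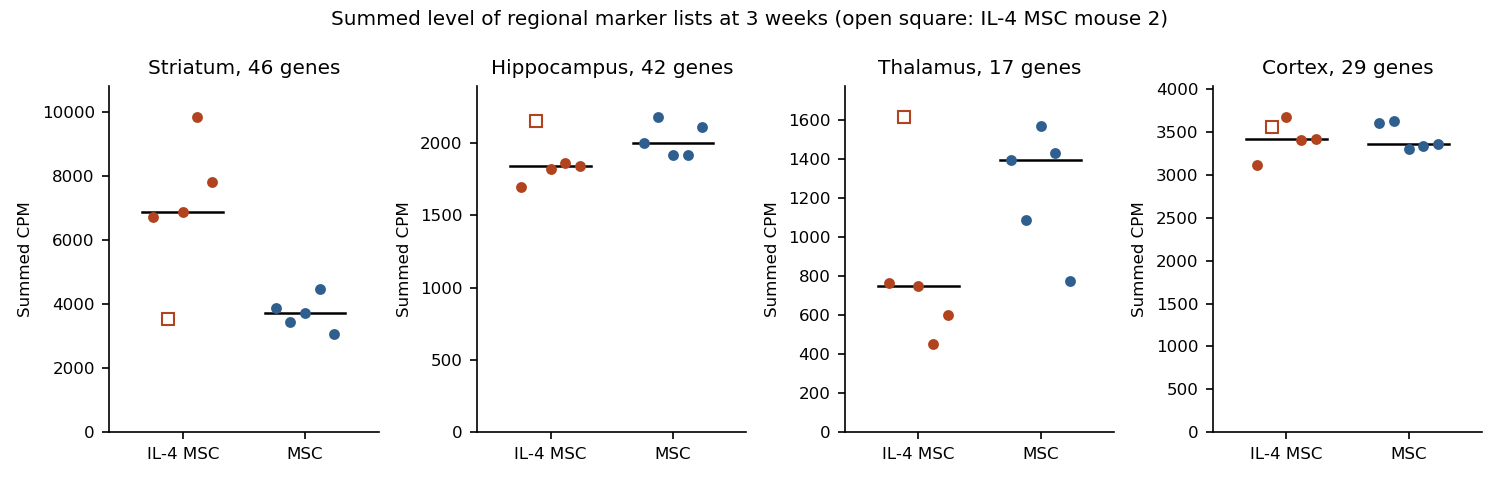
Summed level (CPM, linear axes starting at 0) of the striatal projection neuron, hippocampal, thalamic and cortical lists in single mice of the IL-4 MSC and MSC groups at 3 weeks, with a bar at the group median and IL-4 MSC mouse 2 drawn as an open square. Mouse 2 has the lowest striatal and the highest thalamic and hippocampal sums among the IL-4 MSC mice, and the cortical sums overlap.

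Among the lower genes, the 10 with the largest changes at a mean of at least 1 CPM were Slc6a5, Crp, Casr, Irx3, Foxb1, Prph, Glra1, Best3, Gpr179 and Aldh1a2, with log2 fold changes from -2.78 to -0.85. Single MSC mice set the first of these. Slc6a5, a glycine transporter, had 0.734, 0.917, 0.618, 0.437 and 0.716 CPM in IL-4 MSC mice and 0.615, 1.32, 1.29, 0.894 and 19.2 CPM in MSC mice, where the value of mouse 5 stood alone (log2 fold change -2.78 ± 0.81 (SE), adjusted p = 0.0499). Without that mouse its log2 fold change was -0.60 (adjusted p = 0.75). Crp, an acute-phase protein, had 11.4 CPM in MSC mouse 3 and at most 0.885 CPM in the other 9 mice, and its log2 fold change without that mouse was 0.00. Glra1, a glycine receptor subunit of the brainstem and spinal cord, had 5.70, 5.60, 2.15, 1.31 and 2.23 CPM against 5.43, 8.57, 8.11, 4.83 and 13.3 CPM, with an overlap at the low end of the MSC group (log2 fold change -1.25 ± 0.30 (SE), adjusted p = 0.017). Irx3 and Foxb1, transcription factors of the developing neural tube, had log2 fold changes of -1.35 ± 0.36 and -1.33 ± 0.35 (SE). Without MSC mouse 5 the log2 fold changes of Aldh1a2, a retinoic acid synthesis enzyme of the meninges, Glra1, Irx3 and Foxb1 were -0.56, -0.997, -1.12 and -1.39 (adjusted p = 0.123, 0.0842, 0.115 and 0.0508), and none of the 4 passed.

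Some called genes separated the groups in every mouse. The levels of 54 higher and 61 lower called genes did not overlap between groups. Of these, 39 (72.2%) and 46 (75.4%) had an r between -0.5 and 0.5 with the striatal score elsewhere, against 78.4% of all genes. An r above 0.5 was found for 14 of the 54 higher genes, against 11.1% of all genes. An r below -0.5 was found for 15 of the 61 lower genes, against 10.5%. The rule also required IL-4 MSC mouse 2, which lacked the striatal pattern, to separate. It thus worked against genes of that pattern, and 1 of the 46 striatal genes met it. Among the separated called genes with a mean of at least 1 CPM, the 5 with the smallest adjusted p were Flt3, Nmnat3, Dazl, Nr2f2 and Prune2, a choice made after their values were seen. Flt3 (chr5:147330741-147400489), a receptor tyrosine kinase, had 7.99, 11.98, 11.1, 7.97 and 9.29 CPM in IL-4 MSC mice and 13.3, 14.0, 12.9, 13.9 and 17.0 CPM in MSC mice (log2 fold change -0.56 ± 0.09 (SE), adjusted p = 0.00223). Nr2f2 (chr7:70351944-70366735), a nuclear receptor that marks interneurons and vessels, had 42.1, 48.0, 35.2, 18.3 and 28.5 CPM against 62.1, 68.8, 67.5, 53.3 and 52.7 CPM (log2 fold change -0.83 ± 0.15 (SE), adjusted p = 0.00309). Nmnat3, an enzyme of NAD synthesis, was higher, with 3.39, 2.37, 2.96, 3.74 and 3.40 CPM against 1.62, 1.55, 2.11, 2.15 and 1.52 CPM (log2 fold change 0.83 ± 0.15 (SE), adjusted p = 0.00254). In each of the 3 genes mouse 2 was the IL-4 MSC mouse nearest to the MSC range and mouse 4 the farthest from it, as in the striatal sum, and Nr2f2 placed the 5 mice in the exact reverse of that sum. The PBS mice had 11.5 to 14.2, 43.6 to 62.3 and 1.72 to 2.69 CPM. Dazl and Prune2 had log2 fold changes of 0.83 ± 0.15 and -0.22 ± 0.04 (SE). Irs2 (chr8:10984681-11008458), an adaptor of insulin and IL-4 receptor signalling, was lower by a modest margin, with 89.5, 103, 91.1, 85.3 and 80.6 CPM against 105, 116, 111, 111 and 124 CPM and no overlap (log2 fold change -0.33 ± 0.07 (SE), adjusted p = 0.00599).

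The early difference between IL-4 MSC and MSC mice was large and was measured in other mice. Whether it came from IL-4 or from the transfection was not tested in the sequenced groups. At 1 week IL-4 MSC mice had 1312 genes (7.66%) above and 176 (1.03%) below MSC mice. Of the 1312 early higher genes, 11 were higher at 3 weeks (0.838%, against 2.29% of all genes) and 6 were lower (0.457%, against 1.18%). Their median log2 fold change was 0.60 at 1 week and -0.05 at 3 weeks. Of the 176 early lower genes, 2 were higher at 3 weeks (1.14%, against 2.29%) and 5 were lower (2.84%, against 1.18%). The median of the 176 was -0.14 at 1 week and -0.02 at 3 weeks. Without MSC mouse 5, 1 of the 176 was higher and 3 were lower, and without IL-4 MSC mouse 2, 6 were higher and 18 lower. Over all genes tested the difference itself changed between the weeks for 7.86%, with 325 (1.9%) larger at 3 weeks and 1021 (5.96%) smaller. No count of this kind is given for the 1312, since they were chosen by the 1-week values that enter it. Of the 362 genes with an early log2 fold change of at least 1, 1 was higher at 3 weeks (Postn) and 2 were lower (Sh2d2a and Gpr171, an adaptor and a receptor of lymphocytes). Of the 106 with at least 2, 0 passed in either direction. In the fit on the 10 libraries alone 0 of the 1312 were called, and DESeq2 on those libraries called 7 higher and 1 lower.

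**Figure D4:**
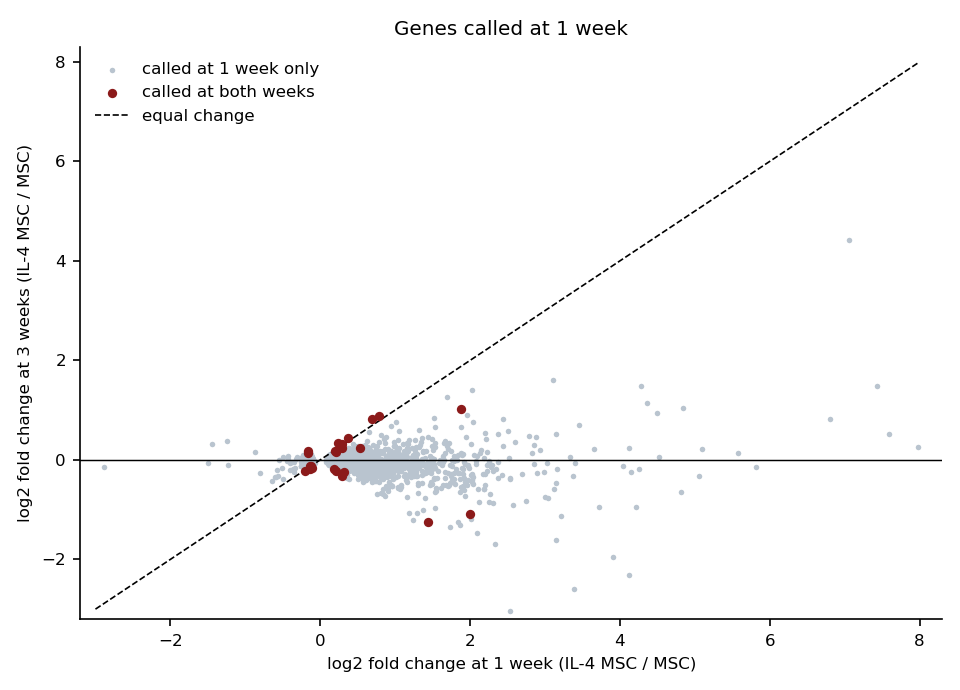
Log2 fold change of IL-4 MSC against MSC at 3 weeks (vertical axis) against that at 1 week (horizontal axis) for the 1312 genes higher and the 176 lower at 1 week, with genes also called at 3 weeks in a darker colour and the line of equal change dashed. Most points lie near 0 on the vertical axis, and the 1312 early higher genes have a median of -0.05 at 3 weeks. The highest point at 3 weeks, Rnase2a (4.42, adjusted p = 0.114), did not pass and is named for its place in the plot.

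The position of the median of the 1312 early higher genes depended on MSC mouse 5. That mouse had the highest level among MSC mice in 807 of the 1312 early genes and in 79 of the 106 with an early log2 fold change of at least 2 (27.2% of all genes). Without it the medians at 3 weeks were 0.02 over the 1312 genes, 0.10 over the 362 and 0.29 over the 106, and 7 genes were higher and 1 lower. Without IL-4 MSC mouse 2 the medians were -0.07, -0.18 and -0.23, and 19 genes were higher and 32 lower.

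Genes of the M2-like state had a summed level within the Sham range in 9 of the 10 mice. Of 43 genes of the IL-4 response of macrophages and microglia, 33 were higher at 1 week, against 7.66% of all genes tested. At 3 weeks 0 were called in either direction, which is near the 2.29% and 1.18% of all genes. In the fit on the 10 libraries alone 5 of the 43 stood at an unadjusted p under 0.05, against 13.8% of all genes. The levels of 1 of the 43 lay higher in every IL-4 MSC mouse than in every MSC mouse, against 0.829%. The median log2 fold changes at 1 and 3 weeks were 1.62 and -0.13. Without MSC mouse 5 the median at 3 weeks was 0.05. Their summed level at 3 weeks was 239, 240.0, 216, 230.5 and 223 CPM in IL-4 MSC mice and 249.6, 233, 222, 248 and 398 CPM in MSC mice, against 1023 to 1414 CPM in IL-4 MSC mice at 1 week. Only MSC mouse 5 stood apart at 3 weeks, and Sham mice ranged from 193 to 268 CPM.

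Mrc1 (chr2:14229392-14332057) had 103, 81.9, 89.4, 101 and 82.9 CPM in IL-4 MSC mice and 8.81, 7.22, 11.0, 8.47 and 8.58 CPM in MSC mice at 1 week. At 3 weeks it had 7.20, 7.15, 7.22, 6.91 and 6.31 CPM against 7.50, 5.56, 6.38, 8.08 and 16.05 CPM. The groups overlapped at 3 weeks, with MSC mouse 5 alone above the rest (log2 fold change -0.33 ± 0.19 (SE), adjusted p = 0.359), and the difference between the weeks was called (adjusted p = 2.37e-11). Arg1 (chr10:24915221-24927484) fell from 164, 148, 163, 147 and 106 CPM in IL-4 MSC mice at 1 week to 0.367, 0.506, 0.228, 0.136 and 0.398 CPM in those at 3 weeks, where MSC mice had 0.226, 0.0860, 0.157, 0.166 and 0.802 CPM (log2 fold change 0.14 ± 1.17 (SE), adjusted p = 0.969). Chil3 had 182, 144, 95.2, 198 and 103 CPM at 1 week and 0.254, 1.33, 0.0650, 0.0273 and 0.106 CPM at 3 weeks in IL-4 MSC mice, with 0.0647, 0.0860, 0.0314, 0.0331 and 1.12 CPM in MSC mice at 3 weeks (log2 fold change 0.26 ± 0.83 (SE), adjusted p = 0.911). The 2 values above 1 CPM belonged to IL-4 MSC mouse 2 and MSC mouse 5, and the other 8 were at most 0.254 CPM. Its log2 fold change was -1.29 without the first and 2.55 without the second (adjusted p = 0.469 and 0.262). Without MSC mouse 5 those of Mrc1 and Arg1 were 0.02 and 1.04 (adjusted p = 0.974 and 0.817).

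The 10 genes with the largest early rise at a mean of at least 1 CPM were Arg1, Chil3, Retnla, Ccl24, Msx3, Ccl8, Gzma, F7, Pdcd1lg2 and Mmp13, with log2 fold changes from 4.52 to 7.98 at 1 week. None of the 10 passed at 3 weeks, when 7 had a positive and 3 a negative log2 fold change. Ccl8, a chemokine of alternatively activated macrophages, went from 32.8, 32.7, 31.4, 42.1 and 27.0 CPM in IL-4 MSC mice at 1 week to 0.311, 0.759, 0.0325, 0.164 and 0.371 CPM at 3 weeks, against 0.0647, 0.0573, 0.0943, 0.0662 and 0.602 CPM in MSC mice (log2 fold change 0.82 ± 0.61 (SE), adjusted p = 0.52, and 2.15 without MSC mouse 5, adjusted p = 0.112). The 5 genes with the largest early fall, Hba-a1, Fmo2, Fam220a, Npcd and Gm14569, did not pass at 3 weeks either.

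Retnla had the largest positive estimate among the 43 genes at 3 weeks. It had 0.226, 0.221, 0.0976, 0.0546 and 0.212 CPM in IL-4 MSC mice and 0.0970, 0.0573, 0.0629, 0.0662 and 0 CPM in MSC mice, with the 3 highest values all in IL-4 MSC mice but few counts behind each (log2 fold change 1.49 ± 0.57 (SE), adjusted p = 0.149). Tgm2, a transglutaminase, and Il4ra were high at 3 weeks in MSC mouse 5 alone, at 42.4 and 23.5 CPM against at most 18.3 and 9.18 CPM in the other 9 mice. Their log2 fold changes were -0.56 and -0.49 with that mouse and -0.13 and 0.03 without it (adjusted p = 0.152 and 0.267, and 0.763 and 0.964). Cd163, a scavenger receptor, had a log2 fold change of 0.13 ± 0.20, adjusted p = 0.795, Ccl17, a type 2 chemokine, one of -0.43 ± 0.30, adjusted p = 0.481, and Ccl24, another, one of -0.14 ± 0.37, adjusted p = 0.891.

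**Figure D5:**
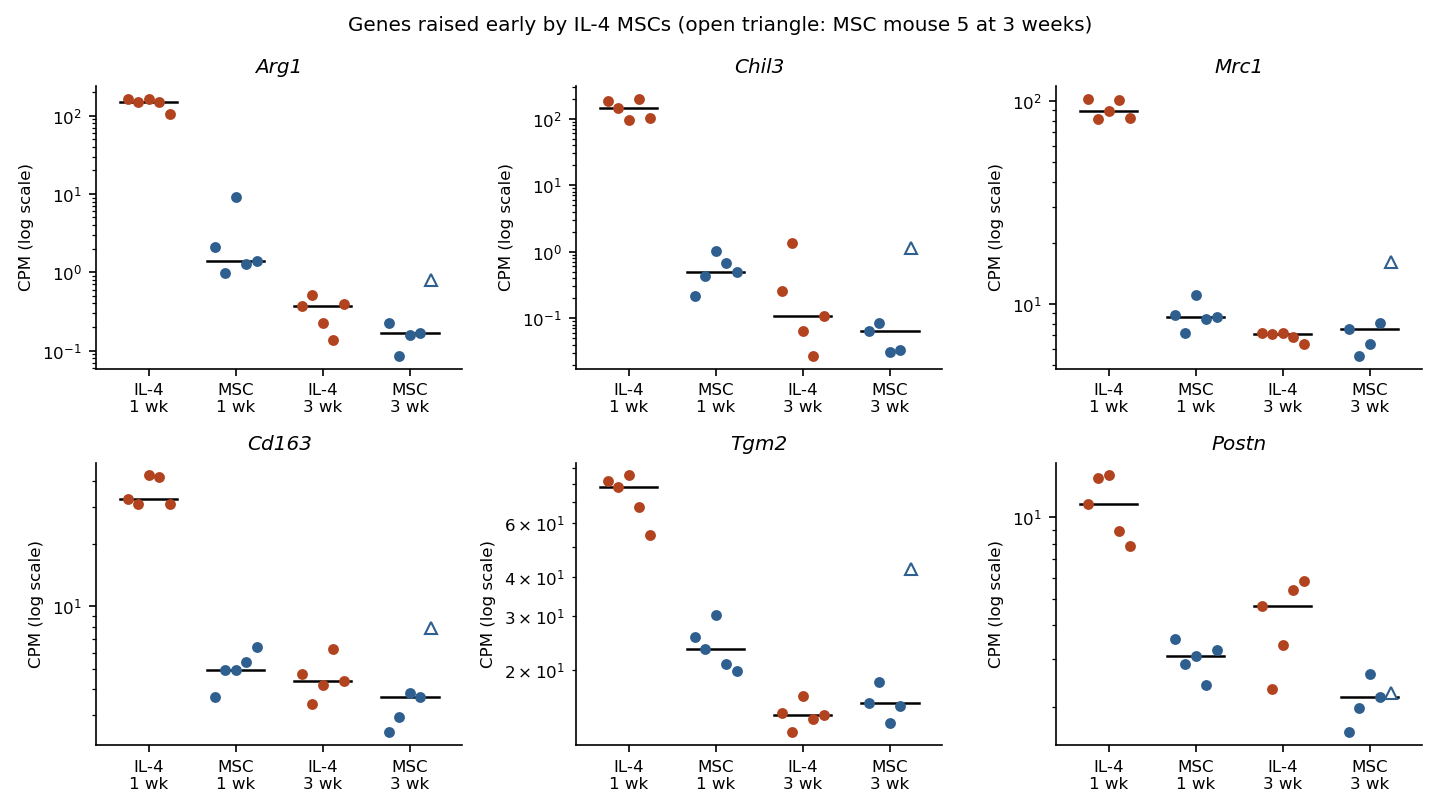
Levels of 6 genes raised early by IL-4 MSCs in single mice (CPM, log axis) at 1 week and 3 weeks in IL-4 MSC and MSC mice, with a bar at the group median and MSC mouse 5 at 3 weeks drawn as an open triangle. The panels of Arg1, Chil3, Mrc1, Cd163 and Tgm2 show overlapping groups at 3 weeks, while Postn keeps 4 of 5 IL-4 MSC mice above all MSC mice.

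The 11 genes higher at both weeks were Itga5, Tcf7, Hmgn2, Vrk1, Postn, Ptpn7, Pml, Rpl12, Slc16a6, Ptgs1 and Otulinl. Postn (chr3:54361109-54391037), a secreted matrix protein of fibroblasts, had 11.2, 14.0, 14.3, 8.87 and 7.81 CPM against 3.56, 2.88, 3.10, 2.42 and 3.24 CPM at 1 week. At 3 weeks it had 4.71, 2.34, 3.38, 5.38 and 5.81 CPM against 1.62, 1.98, 2.64, 2.18 and 2.26 CPM (log2 fold change 1.02 ± 0.22 (SE), adjusted p = 0.00901), and only IL-4 MSC mouse 2 overlapped the MSC mice. Its difference between the weeks was not called (adjusted p = 0.0783), and its log2 fold change without mouse 2 was 1.17. Ptgs1 (chr2:36230426-36252272), cyclooxygenase 1, which microglia express, had 14.9, 15.7, 15.5, 15.0 and 15.9 CPM against 12.97, 12.4, 13.3, 12.2 and 14.3 CPM at 3 weeks with no overlap, mouse 2 included (log2 fold change 0.24 ± 0.06 (SE), adjusted p = 0.0296). Otulinl had 18.0, 17.5, 17.7, 20.4 and 20.5 CPM against 16.2, 15.9, 14.3, 15.9 and 16.4 CPM, again with no overlap (log2 fold change 0.26 ± 0.06 (SE), adjusted p = 0.0123). In the 24 other libraries the r with the striatal score was 0.53 for Itga5, 0.73 for Ptpn7 and 0.74 for Slc16a6, and 0.22, 0.07 and 0.20 for Postn, Ptgs1 and Otulinl.

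The receptor pathway and the Il4 transcript were examined as well. Of 13 genes of IL-4 receptor and STAT6 signalling, 8 were higher at 1 week, against 7.66% of all genes tested. At 3 weeks 1 was lower (Irs2), against 1.18% of all genes tested. At 3 weeks 2 of the 13 had a positive log2 fold change and the median was -0.24, or -0.06 without MSC mouse 5. Their summed level was 360.1, 375, 362, 355 and 349.5 CPM in IL-4 MSC mice and 386, 397, 390.1, 382 and 448 CPM in MSC mice, so every IL-4 MSC mouse lay below every MSC mouse, and PBS mice had 365 to 376 CPM. Irs2 made up 80.6 to 124 CPM of these sums. Il4, which did not pass the filter on low counts, had 3 to 8 counts in IL-4 MSC mice and 2 to 6 in MSC mice. The means were 0.140 ± 0.0559 and 0.136 ± 0.0586 CPM (SD, n = 5 each, two-sided exact permutation test p = 0.889, where the smallest p this design allows is 0.00794).

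Immune and glial lists gave few calls at 3 weeks, when 2.29% of all genes tested were higher and 1.18% lower. In lists of this size, 0 or 1 call is near those shares. At 1 week 7.66% of all genes tested were higher. Among 22 genes of microglia and macrophages 0 were called at 3 weeks and 15 were higher at 1 week. Among 17 genes of reactive astrocytes 0 were called, and Gfap, the astrocyte filament, had 374, 544, 275, 226 and 369 CPM against 439.6, 335, 352, 464 and 625 CPM (log2 fold change -0.31 ± 0.18 (SE), adjusted p = 0.363). Among 25 inflammatory mediators and 26 interferon-stimulated genes 0 were called, with 11 and 26 higher at 1 week. Among 21 T cell genes 1 was higher, the Cd4 gene described above, and 1 was lower (Trac, -0.77 ± 0.22, adjusted p = 0.0499). MSC mouse 5 had the highest level of the MSC mice in 17 of the 22 microglial genes, 12 of the 17 astrocyte genes and 15 of the 21 T cell genes. Over all genes tested that share was 27.2%. Without it the medians of these lists moved from -0.04 to 0.11, from -0.23 to -0.02 and from -0.29 to -0.08 on the log2 scale.

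Of 20 genes of newborn neurons 2 were higher, Eomes (2.01 ± 0.44, adjusted p = 0.00935), a transcription factor of intermediate progenitors, and Igfbpl1 (0.91 ± 0.24, adjusted p = 0.0301). Over all genes tested 2.29% were higher and 1.18% lower. Neurod1, a factor of newborn granule cells, had a log2 fold change of -0.60 ± 0.18, adjusted p = 0.0594. Eomes had 3.22, 0.411, 1.63, 2.76 and 2.57 CPM in IL-4 MSC mice and 0.388, 0.602, 0.283, 0.232 and 1.09 CPM in MSC mice, so that mouse 2 again lay within the MSC range. Its log2 fold change without mouse 2 was 2.26 (adjusted p = 0.000209). Of 28 growth and neurotrophic factor genes and 17 immediate early genes 0 passed in either direction, with Bdnf at -0.40 ± 0.12, adjusted p = 0.0603, and Fosb at -0.42 ± 0.13, adjusted p = 0.0593. Without mouse 2, 5 growth factor genes were lower and 2 higher, and 6 immediate early genes were lower and 0 higher, against 5.01% of all genes tested in each direction.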

How the data were processed

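RNA from a piece of left hemisphere around the injection site, for which the labels and the methods give different widths, was sequenced in short paired-end reads on an Illumina NovaSeq. Per the labels and methods, the authors trimmed reads with cutadapt 2.4, quantified them by pseudo-alignment in kallisto 0.46 against the protein-coding transcripts of GENCODE, and analysed them with sleuth 0.30 in R 3.6.1, leaving out 1 of 35 labelled samples. The deposited table held estimated counts and TPM for 21203 genes in 34 libraries. Its columns of fold changes and p-values from the authors' own comparisons were not used, and neither were the TPM values the authors gave. Because pseudo-alignment was limited to protein-coding transcripts, non-coding genes were not measured, and reads of near-identical genes may be split between them.

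Estimated counts were rounded to whole numbers. Genes were filtered with filterByExpr over the 7 groups (17131 tested), scaled by TMM and fitted jointly with edgeR 4.0.16 (quasi-likelihood test, Benjamini-Hochberg adjustment, threshold 0.05, R 4.3.3). Prior count was 2. The joint fit shares the spread over all groups. Separate fits took the 10 libraries alone, the 3-week injured groups, each mouse left out, Sham mice split by week, limma 3.58.1 (voom with quality weights), DESeq2 1.42.0, other scalings and filters, a block for replicate number, and the striatal score as a covariate. On simulated data for the 3-week comparison the joint fit recovered 96% of 2-fold and 98% of 4-fold changes over 17046 genes. The fit on the 10 libraries alone recovered 94% and 97% over 16511 genes. The simulation drew each gene independently with the spread of the joint fit, and changed only genes at a mean of at least 1 CPM. It held no mouse that deviates in many genes at once, as real mice did here. These shares therefore do not give the power of either fit in the real data. Nothing in the labels says that the mice of a group came from separate cages or surgery days, so p-values measure a spread between mice only. In the joint fit that spread is pooled over 34 libraries and is not that of the 10 compared. In edgeR's fit on the 10 libraries alone the smallest adjusted p was 0.205 and 0 genes were called. No 2 libraries of a group agreed within sampling noise.

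The libraries compared and all gene lists (34 lists, 532 of 552 genes tested) were chosen with earlier results of these data known. Named genes are the 10 largest called changes in each direction at a mean of at least 1 CPM, up to 4 members per list with the smallest p, preset marker genes, the largest 1-week changes, and genes called at both weeks. Gene positions are from GENCODE M21 (GRCm38), matched for 208 of 209 genes. A named member of the striatal lists is not reported here, though the list counts include it. The 3-count level covers counting error only. Figures were drawn with matplotlib.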

Additional observations from a re-analysis of the deposited data

Results flagged for a closer look

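Within-group spread was examined in 224 groups of 5 mice (107 genes and 5 summed lists, IL-4 MSC and MSC at 3 weeks) with Dixon's test of the gap between the most extreme mouse and its neighbour, divided by the range. For independent, normally distributed values the rule flags about 1 in 20 groups, and 27 (12.1%) were picked out here. The values were untransformed CPM of genes measured in the same mice. Some of these genes were named for changes that a single mouse set, so the share flagged does not measure an excess. In 14 of them MSC mouse 5 was the high mouse. The gap ratio was 0.993 for Lcn2, 0.962 for Slc6a5, 0.95 for Chil3, 0.941 for Il4ra, 0.932 for Ccl8, 0.835 for Tgm2, 0.807 for Aldh1a2, 0.804 for Arg1, 0.803 for F7, 0.777 for Gzma, 0.76 for Mrc1, 0.752 for Cd163, 0.728 for Flt3 and 0.845 for the summed IL-4 response list. IL-4 MSC mouse 2 was picked out in 6 groups, high for Chil3 (0.826), Fibcd1 (0.744) and the summed thalamic list (0.732), and low for Hmgn2 (0.777), Kcnk2 (0.714) and Clspn (0.713). Other single mice were MSC mouse 3 for Crp (0.992), Mmp13 (0.78) and, at the low end, Otulinl (0.73), MSC mouse 4 for Ankk1 (0.902) and Zfp503 (0.833), IL-4 MSC mouse 3 for Ccl17 (0.886) and IL-4 MSC mouse 4 for Pdcd1lg2 (0.787).

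For 39 of the genes named, the IL-4 MSC minus MSC difference itself changed between 1 week and 3 weeks (edgeR's quasi-likelihood test of the difference, Benjamini-Hochberg adjusted p under 0.05). Some were named for their large 1-week difference and others for their 3-week difference, and both differences enter this test. The count of 39 is therefore not a result about these genes. Over all genes tested the difference changed for 7.86%. As 3 weeks minus 1 week on the log2 scale, the early IL-4 genes changed by -7.716 (Chil3), -7.07 (Msx3), -5.989 (Ccl8), -5.964 (Ccl24), -5.936 (Retnla), -5.451 (Pdcd1lg2), -5.438 (Arg1), -5.383 (Gzma), -4.464 (Mmp13), -3.789 (F7), -3.701 (Mrc1), -2.692 (Cd163), -2.172 (Tgm2) and -1.976 (Il4ra). Other immune genes changed by -4.85 (Lcn2), -3.086 (Gpr171), -2.69 (Sh2d2a), -1.333 (Trac), -0.5821 (Flt3) and -0.2861 (Ptgs1). Genes of the striatal, dopamine and interneuron lists changed by 1.56 (Pde10a), 1.16 (Gng7), 1.129 (Gpr52), 1.022 (Pde1b), 1.004 (Adcy5), 0.8816 (Sp9), 0.7534 (Chrm4), 0.5688 (Foxp1), 0.4957 (Gad1) and 0.6171 (Kcnab1). The remaining genes were Fmo2 (1.756), Igfbpl1 (1.075), Dazl (0.8741), Kcnk2 (0.6675), Tyro3 (0.4102), Tle4 (0.371), Prune2 (-0.2163), Nr2f2 (-0.8139) and Aldh1a2 (-1.107).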

How the results depend on the processing

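The counts differed between fits. The fits on the 10 libraries alone, on the 3-week injured groups alone, with voom on the 10 libraries and with a replicate block on the 10 libraries each called 0 genes higher and 0 lower, and so 0 striatal, 0 hippocampal, 0 cortical and 0 early genes. The striatal covariate in the joint fit also gave 0 for each. DESeq2 on the 10 libraries called 191 higher, 131 lower, 0 hippocampal genes higher, 1 gene of the IL-4 response list, and 7 early genes higher and 1 lower. Over all libraries DESeq2 called 332 lower, 2 hippocampal genes lower and 12 early genes lower, and voom called 642 higher, 509 lower, 7 hippocampal genes lower, 3 of the IL-4 list, and 17 early genes higher and 12 lower. Asking for a log2 fold change of at least 1 left 52 higher, 17 lower, 21 striatal, 0 hippocampal and 0 cortical genes and 1 early gene higher and 2 lower, and asking for it at 1 week gave the same 1 and 2 (at least 2, 0 and 0). RLE and upper-quartile scaling, no filter and robust dispersion kept each of these counts within 1.5 times the reported one.

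Leaving out each mouse from the joint fit gave 60 to 858 genes higher, 27 to 858 lower, 13 to 39 striatal genes higher, 0 to 2 hippocampal genes higher and 0 to 22 lower, 1 to 7 cortical genes, 0 to 3 of the IL-4 list, and 0 to 19 early genes higher and 0 to 32 lower. On the 10 libraries each such fit called 0, except without IL-4 MSC mouse 2: 554 higher, 488 lower, 39 striatal, 1 hippocampal higher and 14 lower, 6 cortical, 3 of the IL-4 list, and 14 early genes higher and 8 lower. These 9-library fits, and the next 3 alternatives, were chosen after seeing the data. With the Sham mice split by week 1 hippocampal gene was lower, and the other counts stayed within 1.5 times. Without both IL-4 MSC mouse 2 and MSC mouse 5 the counts were 691, 661, 2 hippocampal higher and 13 lower, 5 cortical, 3 of the IL-4 list, and 23 and 12 early genes. Voom on the 10 libraries without mouse 2 gave 676, 669, 15 hippocampal genes lower, 8 cortical, 4 of the IL-4 list, and 18 and 16 early genes. At 1 week the counts were 1089 to 1439 higher and 53 to 223 lower over mice left out, with 273 lower in the fit on that week's 10 libraries. Differences between the weeks ranged from 97 to 544 larger and 820 to 1504 smaller, with 204 larger in the fit on 20 libraries. The Il4 difference ranged from -0.0147 to 0.0193 CPM.

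With the covariate 13 named genes changed sign: Ankk1 (-0.17), Cd4 (-0.37), Dlx6 (-0.0093), Drd2 (-0.064), Gad2 (-0.0067), Gpr6 (-0.073), Ido1 (-0.10), Olfr1393 (-0.57), Penk (-0.24), Ppp1r1b (-0.062), Rgs9 (-0.23), Serpina9 (-0.042) and Tac1 (-0.37). Crp changed sign without MSC mouse 3 (0.0016 in the joint fit, 0.00086 on the 10 libraries), and ranged down to -2.18 over mice left out.

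Deviations of same-numbered IL-4 MSC and MSC mice had r from -0.025 to 0.189 over 5 pairs, and 3 of 5 matched best with their own number. So few pairs cannot settle whether the numbers are a pairing, and the main fit treated the mice as unpaired. A replicate block over all libraries gave 2 hippocampal genes lower and 1 of the IL-4 list, and otherwise kept the counts within 1.5 times. The cause of these differences between fits was not tested. Depth limits genes near 3 counts, such as Chil3 and Retnla at 3 weeks.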
